A study of Mus musculus with 15 samples.

Results

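The solute carriers are the largest group of membrane transporters in mammals and carry gene symbols that begin with Slc and a family number. Their members were chosen from the deposited value table as probes whose single gene symbol, updated for aliases, begins with Slc and a digit, and which held a value on 4 or more arrays in both dye orientations. The platform held 233 probes with such a symbol, for 197 genes, and 92 probes for 86 genes met the minimum, out of 8058 tested probes in all. The study set brain RNA of homozygous O377 mice against that of wild-type mice. O377 is a mutant line with an altered allele of Crybb2, the gene of the lens protein beta-B2-crystallin, and the series title asks about its expression in the brain. One channel of each array held 1 pool of 4 wild-type brains and the other held RNA of 5 homozygous O377 brains, labelled with Cy5 on 7 arrays and with Cy3 on 8. No treatment, age, sex or strain background is named in the labels for either group, and no brain region is named.

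Solute carriers move ions, sugars, amino acids, nucleotides, metals and vitamins across membranes without hydrolysing ATP themselves, either down a gradient or coupled to the movement of a second ion or solute. In brain they clear glutamate from the synapse, fill synaptic vesicles, bring glucose and creatine across the blood-brain barrier and set the chloride gradient on which inhibition depends. Others exchange ADP for ATP across the inner mitochondrial membrane or carry nucleotide sugars into the Golgi apparatus.

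The deposited values are log ratios, taken here as log2, and the sources used here do not state whether mutant RNA or Cy5 is the numerator. Each probe therefore has 2 components. The dye-switching component is the mean over arrays with mutant RNA in Cy5 less the mean over arrays with it in Cy3, divided by 2, and it is the genotype difference if values run Cy5 over Cy3. The shared component is the mean of both orientation means, and it is the genotype difference if values run mutant over wild type. In either case a positive value then means higher in the mutant. Log ratios give no level, so no transporter's level can be set against that of another. In whole-brain RNA, fewer cells of a type and less RNA per cell cannot be told apart. The labels tie no brain to an array and do not tell whether the 5 mutant RNAs were pooled. The p-values therefore reflect only how arrays vary, perhaps for technical reasons, and the single wild-type pool leaves out the control's own spread.

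No Slc probe passed the threshold of an adjusted p under 0.05 in limma in either component. In the dye-switching component 0 of 92 Slc probes passed, against 0.645% of all tested probes (52 of 8058), and in the shared component 0 of 92 passed, against 0% of all tested probes. At an unadjusted p under 0.05, 6 Slc probes (6.52%) lay below it in the dye-switching component, against 9.57% of all tested probes. In the shared component 10 Slc probes (10.9%) lay below it, against 9.49% of all tested probes. These shares of Slc probes lie near those of all probes. The smallest limma adjusted p among Slc probes was 0.249 in the dye-switching component, for Slc35a5, and 0.382 in the shared component.

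The estimates of the Slc probes were small and fell on both sides of 0. In the dye-switching component 53 were positive (57.6%, against 52.8% of all tested probes) and 39 negative. Their median was 0.01 on the log2 scale, and the median of all tested probes was also 0.01. The Slc estimates ran from -0.50 for Slc26a11, a sulfate and anion carrier, to 0.29 for Slc2a4, the insulin-responsive glucose transporter. In the shared component 47 were positive (51.1%, against 48.4% of all tested probes) and 45 negative. Their median was 0.0017, against -0.0049 for all tested probes. Probes share arrays, so their signs are not independent, and the sign counts of classes given below were not tested. The shared estimates ran from -0.73 for Slc26a11 to 0.50 for Slc7a7, a light chain of the dibasic amino acid exchangers. The median standard error of a Slc component was 0.0940, and that of all tested probes was 0.0897.

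**Figure D1:**
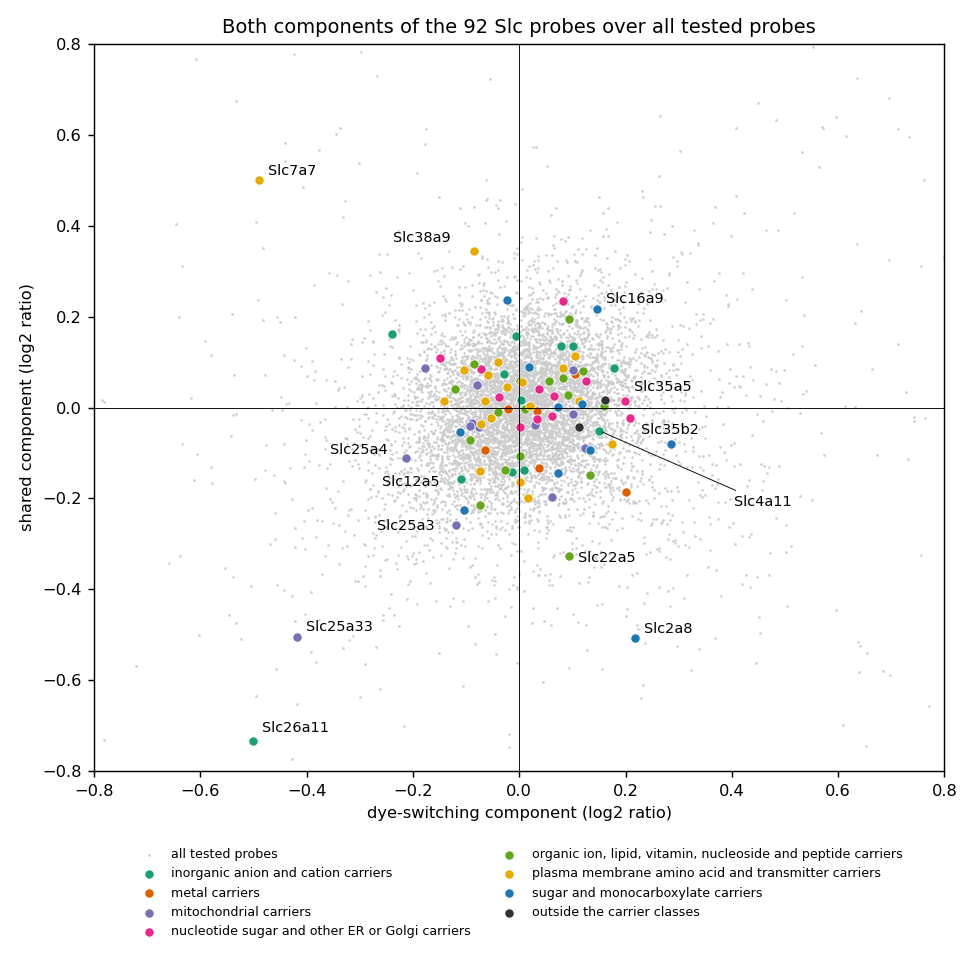
Dye-switching component (x axis, log2 ratio) against shared component (y axis, log2 ratio) of each Slc probe, coloured by transport class, over all tested probes in grey; tested probes beyond 0.8 in size are not drawn. Most Slc points lie in the middle of the grey cloud around 0, and Slc26a11, Slc25a33, Slc7a7 and Slc2a8 lie farthest out.

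The intervals, like the p-values, reflect only how arrays vary, so they do not bound the difference between genotypes. The 95% confidence interval of the dye-switching component lay within 1.5-fold either way for 86 of 92 Slc probes (93.5%), and for 89.7% of all tested probes. The exceptions were Slc26a11, Slc25a33, Slc7a7, Slc7a6, Slc2a4 and Slc2a8. In the shared component the interval also lay within 1.5-fold for 86 of 92, against 89.9% of all tested probes. The exceptions there were Slc26a11, Slc25a33, Slc7a7, Slc2a8, Slc22a5 and Slc38a9. Most of these probes had values on fewer arrays or a value far from the others.

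**Figure D2:**
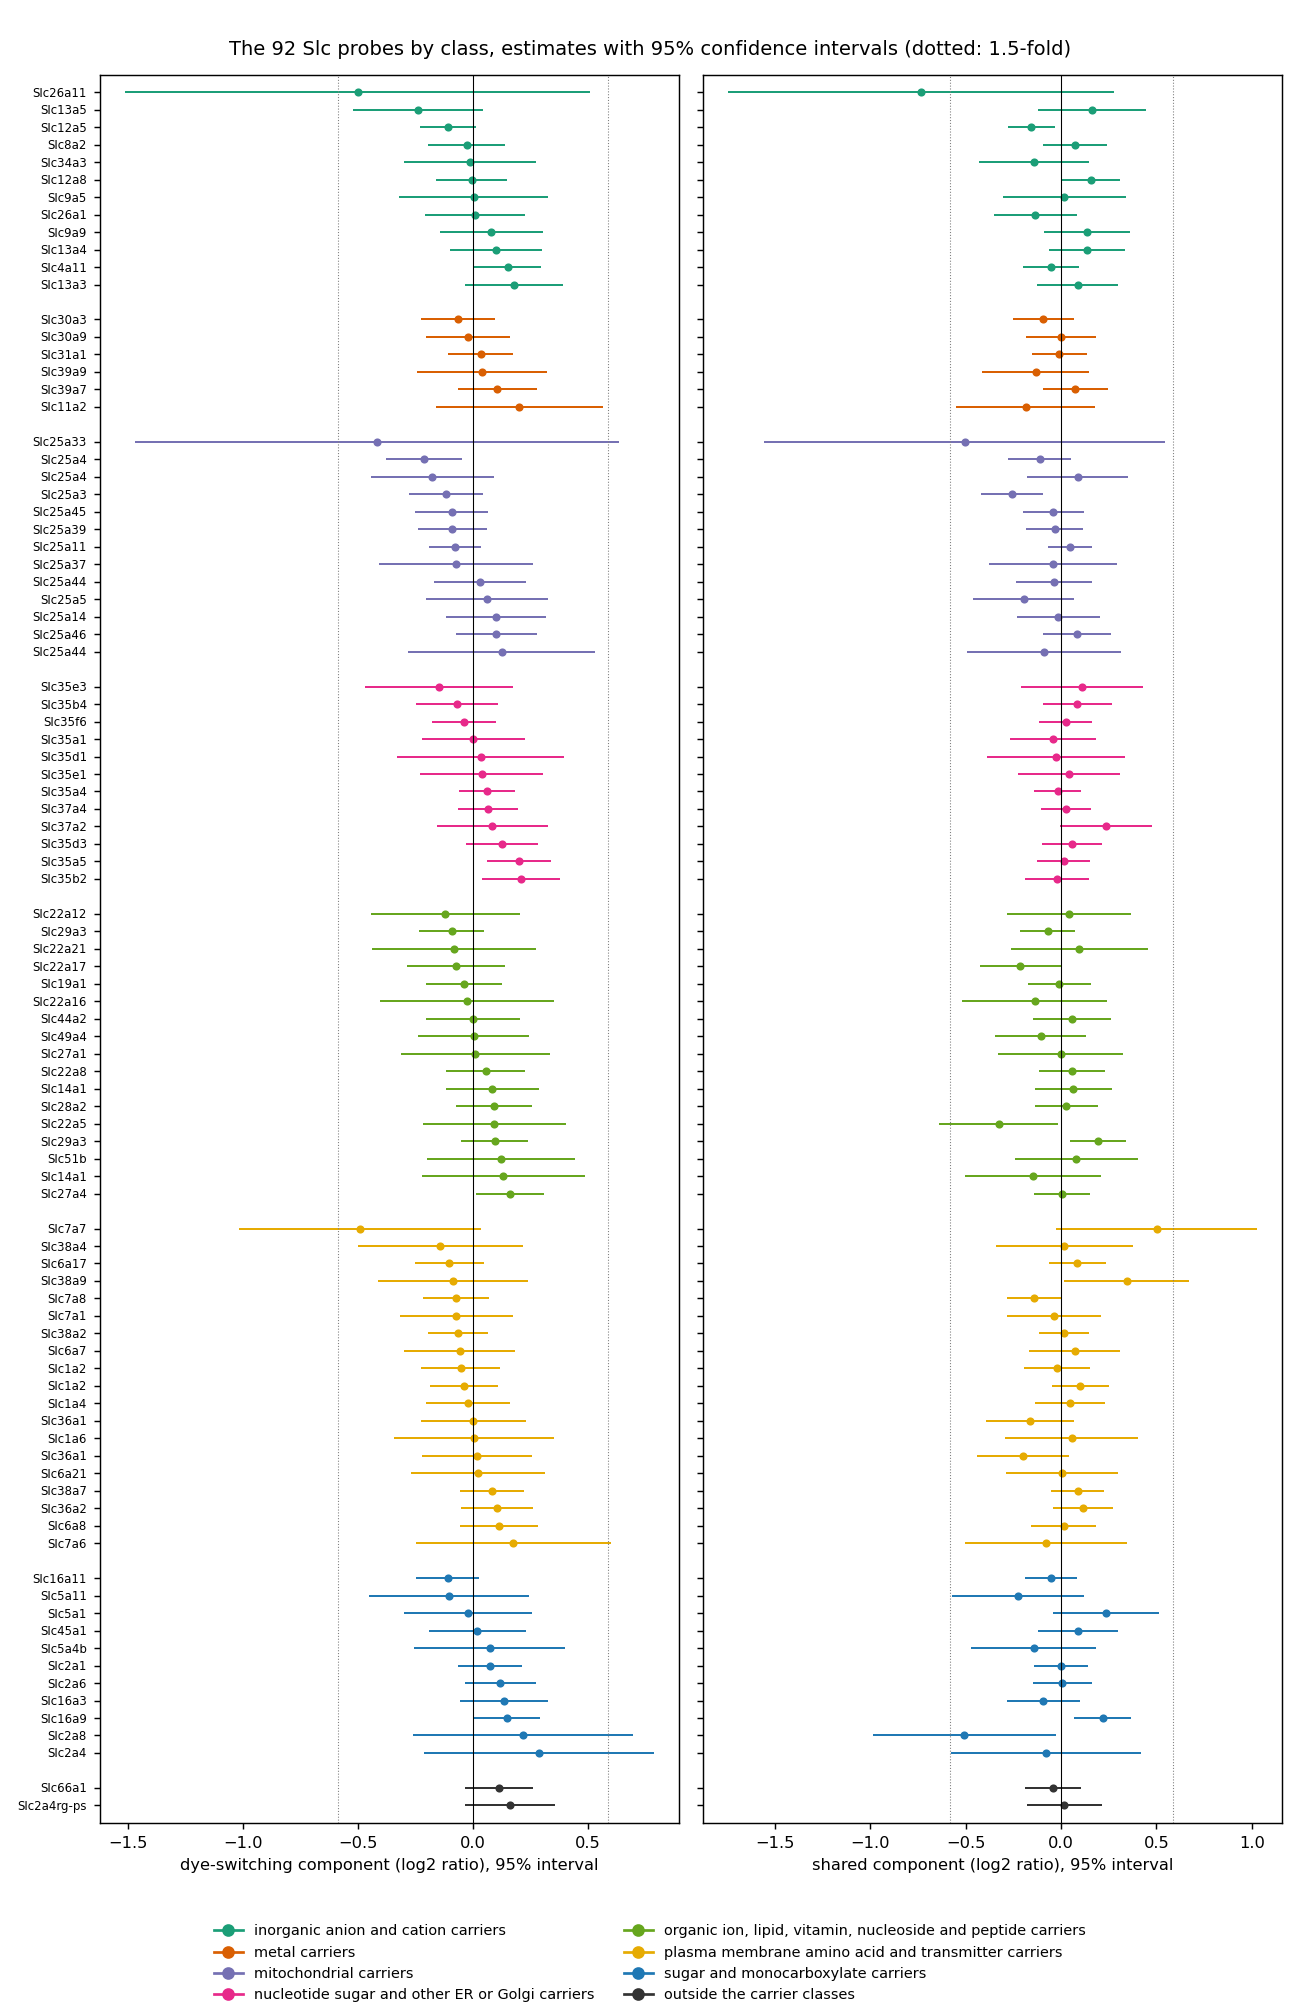
Estimates of the dye-switching component (left) and the shared component (right) of the 92 Slc probes, grouped and coloured by class, with 95% confidence intervals on a log2 ratio axis; dotted lines mark 1.5-fold either way. Nearly all intervals stay between the dotted lines, and the widest are those of Slc26a11 and Slc25a33.

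The carriers of the Golgi apparatus and endoplasmic reticulum included the Slc probe with the smallest p-value of the dye-switching component, that of Slc35a5. Some supply nucleotide sugars and sulfate donors for glycosylation and sulfation, and others carry sugar phosphates. The probe of Slc35a5, a Golgi member of the nucleotide sugar carrier family, had values from 0.05 to 0.73 (median 0.11) on the 7 arrays with mutant RNA in Cy5. On the 8 arrays with mutant RNA in Cy3 its values ran from -0.51 to 0.18 (median -0.19). All values with the mutant in Cy5 were above 0, and of the others only that of array 11, at 0.18, reached into their range. Its dye-switching component was 0.20 ± 0.06 (SE), a 1.15-fold difference, and its 95% confidence interval ran from 0.07 to 0.33 (limma adjusted p = 0.249). Its sign turned with the dye on 14 of 15 arrays. Taken within the 4 successive runs of up to 4 arrays in accession order, the component was 0.14, 0.23, 0.24 and 0.18. Without arrays 9 and 10, the 2 arrays with the widest spread of log ratios, it was 0.14 with a limma adjusted p of 0.354.

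Slc35b2 carries PAPS, the sulfate donor of sulfotransferases, into the Golgi. Its values ran from -0.42 to 0.87 (median 0.20) with mutant RNA in Cy5, and from -0.55 to -0.02 (median -0.23) with mutant RNA in Cy3. All arrays with the mutant in Cy3 were below 0, and the arrays with the mutant in Cy5 lay mostly above 0 and spanned the whole range of the others except its lower end. The dye-switching component was 0.21 ± 0.08 (SE), limma adjusted p = 0.376, with the turned sign on 13 of 15 arrays. Without arrays 9 and 10 it was 0.12 with a limma adjusted p of 0.492. Of the 12 probes of this class, 9 were positive and 3 negative in the dye-switching component (median 0.05), and 8 were positive and 4 negative in the shared component (median 0.02). Slc37a2, a sugar phosphate exchanger of the endoplasmic reticulum, had a shared component of 0.23 ± 0.11 (SE), limma adjusted p = 0.524. Within the runs of up to 4 arrays it was 0.59, 0.38, -0.19 and 0.19. Without arrays 9 and 10 it was 0.37 (limma adjusted p = 0.120), the highest among 27 alternative settings, of which the lowest was 0.17.

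Among the 12 probes of inorganic anion and cation carriers, 6 were positive and 6 negative in the dye-switching component (median -0.0013), and 7 positive and 5 negative in the shared component (median 0.05). Slc4a11, a member of the bicarbonate transporter family known from the corneal endothelium, had values from -0.61 to 0.32 (median 0.18) with mutant RNA in Cy5. With mutant RNA in Cy3 its values ran from -0.37 to 0.03 (median -0.21). Array 10 alone, at -0.61, was low among the arrays with the mutant in Cy5, and the other 6 of them lay above all arrays of the opposite orientation. The dye-switching component was 0.15 ± 0.07 (SE), limma adjusted p = 0.497, with the turned sign on 13 of 15 arrays. Without array 10 it was 0.21 (limma adjusted p = 0.053), the highest estimate among 27 alternative settings, of which the lowest was 0.13. Without arrays 9 and 10 it was 0.20 (limma adjusted p = 0.069).

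Slc12a5 encodes KCC2, the neuronal potassium-chloride cotransporter that keeps chloride low in mature neurons. Its values ran from -0.57 to -0.01 (median -0.21) with mutant RNA in Cy5 and from -0.26 to 0.23 (median -0.08) with mutant RNA in Cy3. All 7 of the first orientation were below 0, those of the second lay on both sides of it, and the orientations overlapped. The shared component was -0.16 ± 0.06 (SE), limma adjusted p = 0.418, with 12 of 15 arrays below 0. Its dye-switching component was -0.11 ± 0.06 (SE), limma adjusted p = 0.555. Slc12a8, of the same family, had a shared component of 0.16 ± 0.07 (SE), limma adjusted p = 0.516. Slc13a5, the plasma membrane citrate carrier, had a dye-switching component of -0.24 ± 0.13 (SE), limma adjusted p = 0.599. For Slc13a5 array 14, with the mutant in Cy3, stood at 1.79, and the nearest array of that orientation at 0.57. The Slc13a5 estimate ran from -0.28 to -0.14 over 26 alternative settings. The sodium-calcium exchanger Slc8a2 stood at -0.03 in the dye-switching component and 0.07 in the shared component.

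Mitochondrial carriers bring nucleotides, phosphate and metabolites across the inner mitochondrial membrane. Of 13 probes, 8 were negative in the dye-switching component (median -0.08) and 10 in the shared component (median -0.04). Positive estimates made up 38.5% and 23.1% of the class, against 52.8% and 48.4% of all tested probes. The members share arrays, and this difference was not tested. The first probe of Slc25a4, the ADP/ATP carrier of heart, muscle and brain, had values from -0.96 to -0.02 (median -0.17) with mutant RNA in Cy5 and from -0.23 to 0.40 (median 0.11) with mutant RNA in Cy3. All arrays of the first orientation were below 0, most of the second were above it, and the ranges overlapped between -0.23 and -0.02. The dye-switching component was -0.21 ± 0.08 (SE), limma adjusted p = 0.351, with the turned sign on 13 of 15 arrays. Within the runs of up to 4 arrays it was 0.0033, -0.27, -0.27 and -0.27.

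The second Slc25a4 probe had values on 11 arrays, from -0.30 to 0.01 on 4 with the mutant in Cy5 and from -0.36 to 1.20 on 7 with the mutant in Cy3. Its dye-switching component was -0.18 ± 0.12 (SE), limma adjusted p = 0.693, with the turned sign on 9 of 11 arrays. Both probes thus had the same sign in this component, and neither passed the threshold. In the shared component they stood at -0.11 and 0.09. Slc25a5, the ADP/ATP carrier of most tissues, stood at 0.06 ± 0.12 (SE) in the dye-switching component, limma adjusted p = 0.907. Its sign there was not stable, and the estimate ran from -0.06 to 0.11 over 27 alternative settings. Array 4, with the mutant in Cy3, stood at -1.65, and the nearest array of that orientation at -0.39.

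Slc25a3 brings phosphate into the mitochondrial matrix for ATP synthesis. Its values ran from -0.90 to -0.05 (median -0.23) with mutant RNA in Cy5 and from -0.45 to 0.22 (median -0.24) with mutant RNA in Cy3. The medians of the orientations were nearly equal, and 12 of 15 arrays lay below 0. The dye-switching component, which rests on the orientation means, was -0.12 (limma adjusted p = 0.662). The shared component was -0.26 ± 0.07 (SE), limma adjusted p = 0.382, and its 95% confidence interval ran from -0.42 to -0.10. It was -0.18 without arrays 9 and 10 (limma adjusted p = 0.246), and -0.23, 0.04, -0.50 and -0.30 within the runs of up to 4 arrays. Slc25a5 stood at -0.20 ± 0.12 (SE) in this component, limma adjusted p = 0.610, with array 4 at -1.65. Slc25a11, the oxoglutarate-malate carrier, stood at -0.08 ± 0.05 (SE) in the dye-switching component and 0.05 in the shared component.

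**Figure D3:**
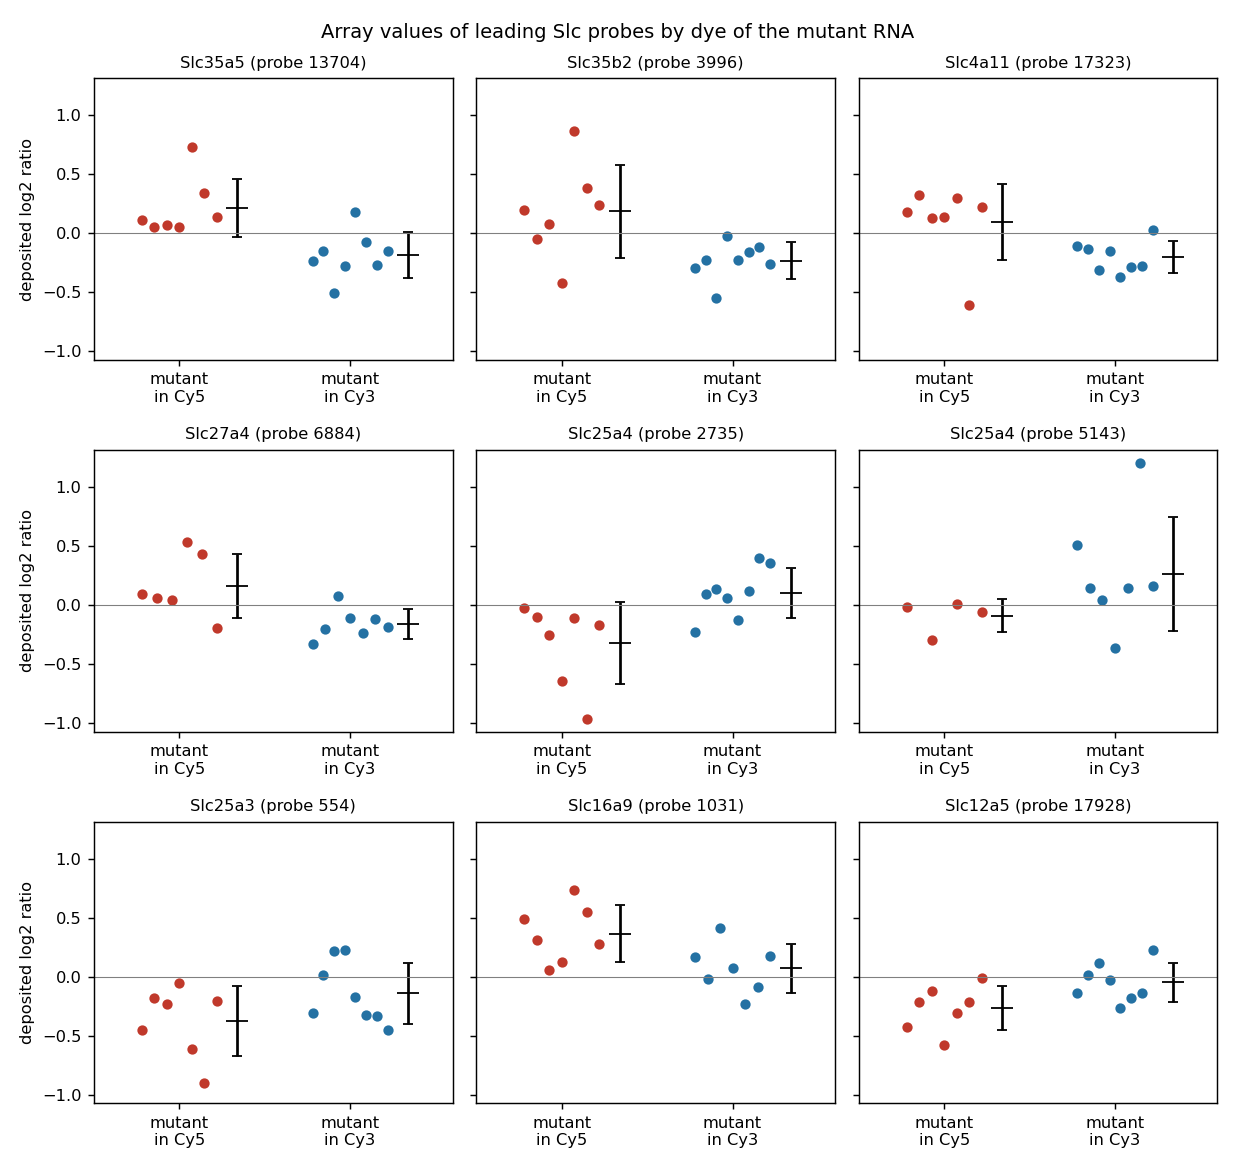
Deposited log2 ratios (y axis) of 9 leading Slc probes on each array, with mutant RNA in Cy5 (red, 7 arrays at most) or Cy3 (blue, 8 arrays at most); bars give mean ± SD. Slc35a5, Slc35b2 and Slc4a11 lie higher in Cy5 than in Cy3 apart from 1 or 2 arrays each, Slc25a4 lies lower, and Slc25a3, Slc16a9 and Slc12a5 keep 1 sign on most arrays of both orientations.

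Sugar and monocarboxylate carriers had 8 of 11 estimates above 0 in the dye-switching component (median 0.07) and 5 of 11 in the shared component (median -0.05). Slc16a9, a monocarboxylate transporter family member linked to carnitine, had values from 0.06 to 0.74 (median 0.31) with mutant RNA in Cy5 and from -0.23 to 0.41 (median 0.08) with mutant RNA in Cy3. All arrays of the first orientation were above 0, and 4 of the 7 arrays of the second. It was the sole Slc probe with an unadjusted p under 0.05 in both components. The shared component was 0.22 ± 0.07 (SE), limma adjusted p = 0.382, and was 0.24, 0.17, 0.24 and 0.23 within the runs of up to 4 arrays. The dye-switching component was 0.15 ± 0.07 (SE), limma adjusted p = 0.508.

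Glucose transporters showed no difference past the threshold. Slc2a1, which carries glucose across the blood-brain barrier, stood at 0.07 ± 0.06 (SE) in the dye-switching component and 0.00084 in the shared component, and its 95% confidence interval in the first ran from -0.06 to 0.21. Slc2a8, an intracellular hexose transporter found in neurons, had values on 9 arrays, from -1.14 to 0.36 with the mutant in Cy5 and from -1.83 to 0.30 with the mutant in Cy3. Its shared component was -0.51 ± 0.21 (SE), limma adjusted p = 0.516, with 6 of 9 arrays below 0. Slc16a11, another monocarboxylate transporter family member, stood at -0.11 ± 0.06 (SE) in the dye-switching component, limma adjusted p = 0.607. The estimate of Slc2a4 rested on 11 arrays, of which array 15 stood at -2.50 and the nearest of the same orientation at -0.59.

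Plasma membrane amino acid and transmitter carriers formed the largest class, with 19 probes; being grouped by family, it also holds lysosomal members. Of these 8 were positive and 11 negative in the dye-switching component (median -0.04), and 13 positive and 6 negative in the shared component (median 0.02). Both probes of Slc1a2, the main glutamate transporter of astrocytes, had values on all 15 arrays. They stood at -0.05 ± 0.08 and -0.04 ± 0.07 (SE) in the dye-switching component, with 95% confidence intervals from -0.22 to 0.11 and from -0.18 to 0.10. In the shared component they stood at -0.02 and 0.10. Slc1a6, the glutamate transporter of cerebellar Purkinje cells, stood at 0.0051 ± 0.15 (SE) in the dye-switching component over 8 arrays, and Slc1a4, a neutral amino acid exchanger, at -0.02 ± 0.08.

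The creatine transporter Slc6a8 stood at 0.11 ± 0.08 (SE) in the dye-switching component, limma adjusted p = 0.693, with array 10 at 0.91 and the other arrays with mutant RNA in Cy5 at 0.12 or below. Without array 10 it was 0.05, limma adjusted p = 0.830. Slc6a17, a synaptic vesicle carrier of neutral amino acids, stood at -0.10 ± 0.07, and Slc38a2, a glutamine and alanine carrier, at -0.06 ± 0.06. Slc7a7 had the largest estimates of the class, -0.49 ± 0.24 in the dye-switching component (limma adjusted p = 0.544) and 0.50 ± 0.24 in the shared component (limma adjusted p = 0.535). Its values were widely spread, from -1.40 to 1.42 on 6 arrays with the mutant in Cy5 and from -0.01 to 1.62 on 5 with the mutant in Cy3. Slc7a8, a light chain of the large neutral amino acid exchangers, had a shared component of -0.14 ± 0.07, limma adjusted p = 0.524. Slc38a9, the lysosomal arginine sensor, had one of 0.34 ± 0.15 over 9 arrays, limma adjusted p = 0.516.

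Carriers of organic ions, lipids, vitamins, nucleosides and peptides held 17 probes, 11 positive and 6 negative in the dye-switching component (median 0.01) and 9 positive and 8 negative in the shared component (median 0.0025). Slc27a4, a fatty acid transport protein that also activates fatty acids with coenzyme A, had values from -0.19 to 0.53 (median 0.08) with mutant RNA in Cy5 and from -0.33 to 0.08 (median -0.18) with mutant RNA in Cy3. All but 1 value lay above 0 in the first orientation and all but 1 below 0 in the second, and the ranges overlapped. Its dye-switching component was 0.16 ± 0.07 (SE), limma adjusted p = 0.462, with the turned sign on 11 of 13 arrays. Without arrays 9 and 10 it was 0.08 (limma adjusted p = 0.622).

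Slc22a5, the plasma membrane carnitine transporter, had a shared component of -0.33 ± 0.14 (SE), limma adjusted p = 0.516. Its lowest value was -2.22 on array 4, and the robust regression, which gives values far from the others less weight, put the component at -0.17 (limma adjusted p = 0.163). Slc22a17, a receptor for lipocalin-2, had one of -0.21 ± 0.10, limma adjusted p = 0.519, with 12 of 15 arrays below 0.

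Metal carriers were the smallest class, with 6 probes, 4 positive and 2 negative in the dye-switching component (median 0.04), and 1 positive and 5 negative in the shared component (median -0.05). Slc30a3, the zinc transporter of glutamatergic synaptic vesicles, stood at -0.07 ± 0.07 (SE) in the dye-switching component and at -0.09 ± 0.07 in the shared component, limma adjusted p = 0.816 and 0.682. The remaining 2 Slc probes belong to no transport class here: Slc66a1, a lysosomal cationic amino acid exporter outside the classical families, at 0.11, and Slc2a4rg-ps, a pseudogene of a regulator of Slc2a4 and no transporter, at 0.16 in the dye-switching component.

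A robust regression, fitted in limma across the same probes, was the only one of 27 alternative settings in which a Slc probe passed the threshold. It called 3 Slc probes (3.26%) in the dye-switching component, against 2.53% of all tested probes, and 0 in the shared component, against 1.33% of all tested probes. The called probes were those of Slc35b2 (0.19 ± 0.05 SE, limma adjusted p = 0.0358), Slc35a5 (0.17 ± 0.04, adjusted p = 0.0387) and Slc4a11 (0.20 ± 0.04, adjusted p = 0.0121). All were positive, and the share of Slc probes called lay near that of all tested probes.

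For 6 Slc genes a second probe gives a check on the first. Both probes of a gene had the same sign on 7 of 12 arrays for Slc14a1, the urea transporter, on 8 of 15 for Slc1a2, on 7 of 11 for Slc25a4 and on 6 of 11 for Slc25a44, a mitochondrial carrier of branched-chain amino acids. They had it on 6 of 14 for Slc29a3, a lysosomal nucleoside transporter, and on 4 of 12 for Slc36a1, a lysosomal proton-coupled amino acid transporter. The median gap between both probes on an array ran from 0.08 for Slc14a1 to 0.58 for Slc36a1. For Slc29a3 the estimates disagreed in both components. The first probe stood at -0.09 in the dye-switching and -0.07 in the shared component, and the second at 0.09 and 0.19 (limma adjusted p = 0.402 for the last). The estimates of both Slc36a1 probes had the same sign in the shared component, at -0.20 ± 0.11 and -0.16 ± 0.11 (SE), although single arrays mostly differed in sign. Without arrays 9 and 10 they were -0.29 and -0.03, and without array 10 alone -0.18 and -0.10.

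**Figure D4:**
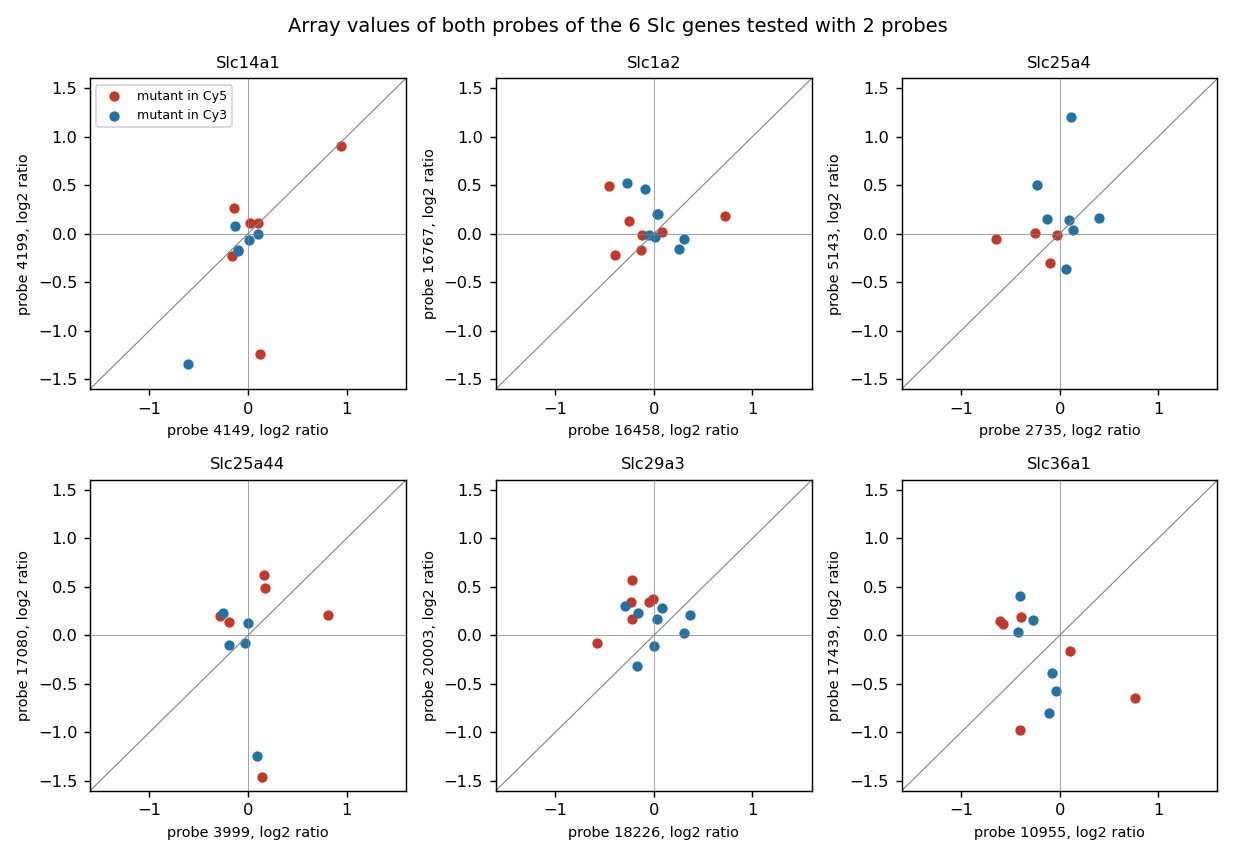
Deposited log2 ratios of both tested probes of 6 Slc genes, 1 point per array, with mutant RNA in Cy5 (red) or Cy3 (blue); the diagonal marks equal values. Points scatter around 0 and away from the diagonal for most genes, with the largest median gap for Slc36a1.

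Which transporters were measured limits what these arrays can say about brain. Of 233 Slc probes on the platform, 39 (16.7%) had no value on any array and 102 had values on too few, and for all probes the share with no value was 19.9%. The share that met the minimum was 39.5%, against 39.9% of all probes. Of a list of 53 transporters with a known role in brain, 30 had a probe of 1 symbol on the platform and 15 had a tested probe. None of these passed the threshold in either component. The vesicular glutamate transporter Slc17a7 had a probe with no value on any array, and the vesicular inhibitory amino acid transporter Slc32a1 and the astrocytic glutamate transporter Slc1a3 had a value on 1 array each. The GABA transporter Slc6a11 had values on 8 arrays but only 3 with the mutant in Cy5, with orientation means of 0.30 and -0.27. It was 1 of 11 Slc probes with 3 arrays in their scarcer orientation, just outside the minimum, and 10 tested probes had 4. Of those just inside, the orientation means of Slc1a6 were 0.06 and 0.05 and those of Slc2a8 were -0.29 and -0.72.

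Transporters outside the Slc nomenclature were read from the same fit. None of 6 probes of ATP-driven ion pumps, 8 of vacuolar ATPase subunits or 8 of aquaporins and Slco carriers passed the threshold in either component. Of 10 ABC transporter probes, 1 passed in the dye-switching component, against 0.645% of all tested probes. It was that of the peptide transporter Tap1 at -0.64 ± 0.13 (SE), limma adjusted p = 0.0372. Of 3 probes of carrier partners and regulators, 1 passed there, that of Nedd4l, a ubiquitin ligase that removes carriers and channels from the membrane, at 0.95 ± 0.13, limma adjusted p = 0.00455 over 9 arrays. None of these passed in the shared component, where 0% of all tested probes passed, and lists this small say little by their counts.

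The tissue and the arrays were checked once. Markers of neurons had 8 tested probes, of which 1 passed in the dye-switching component, against 0.645% of all tested probes. It was Thy1 (-0.53 ± 0.11 SE, limma adjusted p = 0.0276). The 8 estimates ran from that value to 0.09, with a median of 0.02. No tested marker probe of astrocytes (4), oligodendrocytes (2), microglia (2), endothelium and pericytes (6), meninges (5), erythrocytes (1) or skeletal muscle (4) passed in either component. No choroid plexus marker had a tested probe. Lists this small say little by their counts, and the part of cell makeup in the Slc values was not tested. The Crybb2 probe stood at -0.01 ± 0.07 (SE) in the dye-switching component, limma adjusted p = 0.982. The position of the probe against the altered allele is not stated, so it does not check the labels. Each array gave values for 7843 to 10515 of the 20205 probes and for 76 to 89 of the 92 Slc probes. The median log ratio of the Slc probes on an array was 0.02 ± 0.05 (SD, n = 7) with mutant RNA in Cy5 and -0.0067 ± 0.04 (SD, n = 8) in Cy3. Of 1250 Slc values, 6 exceeded 2 in size (0.48%), against 0.692% of all values of tested probes. The largest was -6.41 on array 13 for Slc25a33, a mitochondrial pyrimidine nucleotide carrier whose other values with mutant RNA in Cy5 had a median of 0.11, and the next was -4.70 on array 5 for Slc26a11.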

How the data were processed

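RNA of mouse brains was measured on 15 arrays with 2 colours each, numbered 1 to 15 in accession order. The deposited values are log ratios, 1 for each probe on each array, taken here as log2. Their base, direction and earlier processing are not given in the sources used. Probes were named from the platform's annotation. Of the Slc probes 228 were matched to current symbols through gene identifiers and 5 through synonyms, and 13 probes with several symbols, 1 of them an Slc, were left out.

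Values were used as deposited. The 8058 probes with 4 or more values in both dye orientations were fitted with limma 3.58.1 in R 4.3.3, using an orientation term and leaving missing values out. Moderated p-values were adjusted across all of these probes (Benjamini-Hochberg), and the threshold was 0.05. The number of arrays limits the precision.

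The rule for named probes took, per component and side, the 5 Slc probes with the smallest p, tested transporters with a known role in brain, and genes with 2 tested probes. Other Slc probes are named as ends of ranges, as members of small counts or after their values were seen (Slc7a6, Slc7a8, Slc25a33, Slc66a1, Slc2a4rg-ps and the probes with far values). Members, classes and lists were chosen with earlier results of these data known. Alternatives changed centring, scaling, the minimum, array weights, the variance model, the regression, extreme values, averaging of probes, the dye term, runs of 4 arrays as a random block, and arrays left out. Figures were drawn with matplotlib 3.10.9.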

Additional observations from a re-analysis of the deposited data

Results flagged for a closer look

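In each dye orientation, the values of the 38 named Slc probes and 3 measures of the Slc probes per array (their number with a value, median and interquartile range) were checked for a highest or lowest array far from the others. Of these 82 sets of 4 to 8 arrays 13 had one, all of them sets of single probes, and chance gives about 1 in 20. That rate is for independent values of a normal distribution, which was not checked, and the sets share arrays. The other tested probes were not checked in this way, so whether the 13 sets are particular to the named Slc probes was not tested. With mutant RNA in Cy5, array 10 stood apart for Slc4a11 (-0.61, nearest array 0.13), Slc6a8 (0.91, nearest 0.12) and the first probe of Slc14a1 (0.95, nearest 0.13). In the same orientation array 2 stood apart for Slc22a5 (-0.75, nearest -0.23), array 5 for Slc1a6 (-0.78, nearest 0.23) and array 1 for the second probe of Slc25a44 (-1.46, nearest 0.14). With mutant RNA in Cy3, array 4 stood apart for Slc22a5 (-2.22, nearest -0.84) and Slc25a5 (-1.65, nearest -0.39), and array 14 for Slc13a5 (1.79, nearest 0.57) and Slc22a17 (-1.06, nearest -0.18). Array 3 stood apart for Slc38a9 (1.26, nearest 0.25) and the second probe of Slc25a44 (-1.25, nearest -0.10), and array 8 for the second probe of Slc14a1 (-1.35, nearest -0.17).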

How the results depend on the processing

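Of 27 alternatives, 15 left out 1 array each. The count of Slc probes past the threshold was 0 in both components in every alternative except robust regression, which gave 3 in the dye-switching component. That setting raised the calls over all tested probes too, from 52 to 204 in the dye-switching component and from 0 to 107 in the shared component; the cause was not tested. For the shared component, 10 Slc probes (10.9%) had an unadjusted limma p under 0.05 with all arrays, against 9.49% of all tested probes. With 1 array left out the Slc count ran from 6 (without array 1, 2 or 8) to 11. The shares of all tested probes in those settings are not given here, so this range cannot be read as particular to Slc probes. Slc medians moved by less than the 0.047 SD of array medians in every alternative. Of 76 estimates of the named probes, 52 kept 1 sign in every alternative that gave a value. Of their 1994 values under alternatives, 25 moved by more than the standard error without passing the threshold, and 14 of these without arrays 9 and 10. The random block for runs of 4 arrays had a correlation of 0.0215 and called no Slc probe. Each value already compares both genotypes on 1 array. No further pairing of arrays was possible because the labels tie no brain to an array, and array numbers were given in accession order. Missing spots and spread between arrays, not depth of sequencing, set the precision.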
